A study of Mus musculus with 6 samples.

Results

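The tetraspanin genes were compared between osteoclast cultures with and without a conditional deletion of Ano1, which encodes the calcium-activated chloride channel Anoctamin 1. A gene was taken as a member if its name on the array was Tspan followed by a number, or was Cd9, Cd37, Cd53, Cd63, Cd81, Cd82 or Cd151. This rule found 27 of the 37074 gene names on the array, with 48 probes among them, and it used no measured value. It and the gene lists used below were, however, chosen with earlier results of these data known. Tetraspanin genes with other kinds of name (Prph2, Rom1, Upk1a and Upk1b) were outside it.

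RNA came from bone marrow cells of mice at 6 to 8 weeks of age that were cultured with RANKL, the cytokine that drives monocytes into osteoclasts, for 5 days. Per the methods, the medium held M-CSF at 30 ng/ml and RANKL at 50 ng/ml after a period in M-CSF at 10 ng/ml. The cultures of 3 Ctsk-Cre;Ano1fl/fl mice were set against those of 3 Ano1fl/fl littermates, so both groups carried the floxed allele and only the first carried Cre under the control of Ctsk, the cathepsin K gene that osteoclasts switch on. Each culture was read on 1 of 6 one-colour arrays. Ano1 had 1 probe, which none of the 6 arrays placed well above background, so it could not check the genotype labels, and each direction below rests on those labels alone. The osteoclast markers Ctsk, Acp5 and Mmp9 stood higher in the group labelled Ctsk-Cre;Ano1fl/fl, which is opposite to the direction that the study gives for osteoclast markers after the deletion. Were the labels exchanged, every sign below would turn, and this could not be settled from the arrays. Values below are log2 of the processed, quantile-normalized signal, and every difference is Ctsk-Cre;Ano1fl/fl minus Ano1fl/fl with its standard error (SE).

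Tetraspanins are small membrane proteins that cross the membrane 4 times and gather integrins, metalloproteinases, immunoglobulin-family proteins and other tetraspanins into membrane platforms. They take part in adhesion, membrane fusion and the sorting of cargo into endosomes and exosomes. Osteoclasts arise by fusion of macrophage-like precursors, and in macrophages Cd9 and Cd81 are known to restrain fusion, while Tspan7 has been tied to the cytoskeleton of the resorbing osteoclast.

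An array reads each gene through 60-base probes. The first 30 bases of the probes on which the largest changes rest are shown here, 5′ to 3′ in the sense of the transcript, because each of these genes was read by a single such probe or by probes that disagreed in size. The 2 Cd82 probes are shown since they overlap, sharing 55 of 60 bases, and capitals mark the bases they share; they were not independent readings.
Tspan7 (A_55_P2047275): ctctgtctagcatgccaacaagaatgcatt
Tspan10 (A_51_P176811): aggaagactttgcttattggtgtgtgcatt
Tspan6 (A_51_P473272): tggatggagactgacatctgcttagcctga
Tspan12 (A_55_P2011061): gggaaaagtgcattttactgtatcttgtgc
Tspan3 (A_55_P2736670): aatgttaaccctgtatccagcatccttgcc
Tspan8 (A_55_P2724669): gcagtctacagatatcttcacaggtattca
Cd82 (A_55_P2048794): GGGGGAGGGGTTCCATACACTCATCTCTGG
Cd82 (A_55_P2503156): agggtGGGGGAGGGGTTCCATACACTCATC

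In mm9 coordinates, as the array files give them, these probes lie at chrX:10173646-10173705 on the plus strand (Tspan7), chr11:120308204-120308263 on the plus strand (Tspan10), chrX:130426376-130426435 on the minus strand (Tspan6) and chr6:21721423-21721482 on the minus strand (Tspan12). The Tspan3 probe lies at chr9:55979530-55979589 on the minus strand and the Tspan8 probe at chr10:115286563-115286622 on the plus strand. The Cd82 pair lies at chr2:93259268-93259327 and chr2:93259273-93259332, both on the minus strand. No mm9 annotation was used here, so exon and UTR positions are not given.

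A probe was tested with limma if the scanner software had marked it well above background on every array of 1 or both groups, which held for 37 of the 48 probes (24 genes), p being adjusted by the Benjamini-Hochberg method over all 31848 probes tested. In the Ctsk-Cre;Ano1fl/fl cultures 17 probes of 12 genes were higher and 3 probes of 3 genes were lower at an adjusted p under 0.05, while 17 probes did not pass. Over all probes tested, 21.8% were higher and 30.6% were lower by the same rule, so the groups differed widely across the array. Groups without overlap were common too, at 8576 of the 31848 probes on the higher side and 11803 on the lower. Among the tetraspanin probes tested these counts were 19 and 6. The median difference of the tetraspanin probes tested was 0.18, against -0.09 over all probes tested, and it was 0.32 without Ctsk-Cre;Ano1fl/fl replicate 2. With a change of more than 2-fold asked for as well, 5 tetraspanin probes were higher and 1 was lower, where the array as a whole gave 8.91% and 8.11%. The lower one, that of Tspan8, passed 2-fold by its fitted value and not by its lower limit.

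The filter let 4 probes (Tspan10, Tspan12, Tspan8 and the dimmer Tspan3 probe) through on 1 group only, a route that favors probes with a difference. Among the 33 tetraspanin probes well above background on all 6 arrays, 14 were higher and 2 were lower, with a median difference of 0.17, and those past 2-fold were Tspan7 and Tspan6, both higher. Of all 28597 probes of that kind, 20.2% were higher and 29.9% were lower, with a median of -0.08, and 6.22% and 6.3% passed 2-fold as well. The 2-fold count of the family therefore rested mostly on probes that were dim in 1 group. In the dimmer group, no array had Tspan10, Tspan12 or Tspan8 well above background, so their folds are given as lower limits, and with these probes at their limits the median over the 37 stays at 0.18. In whole cultures, fewer cells of a type and less RNA per cell cannot be told apart.

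**Figure D1:**
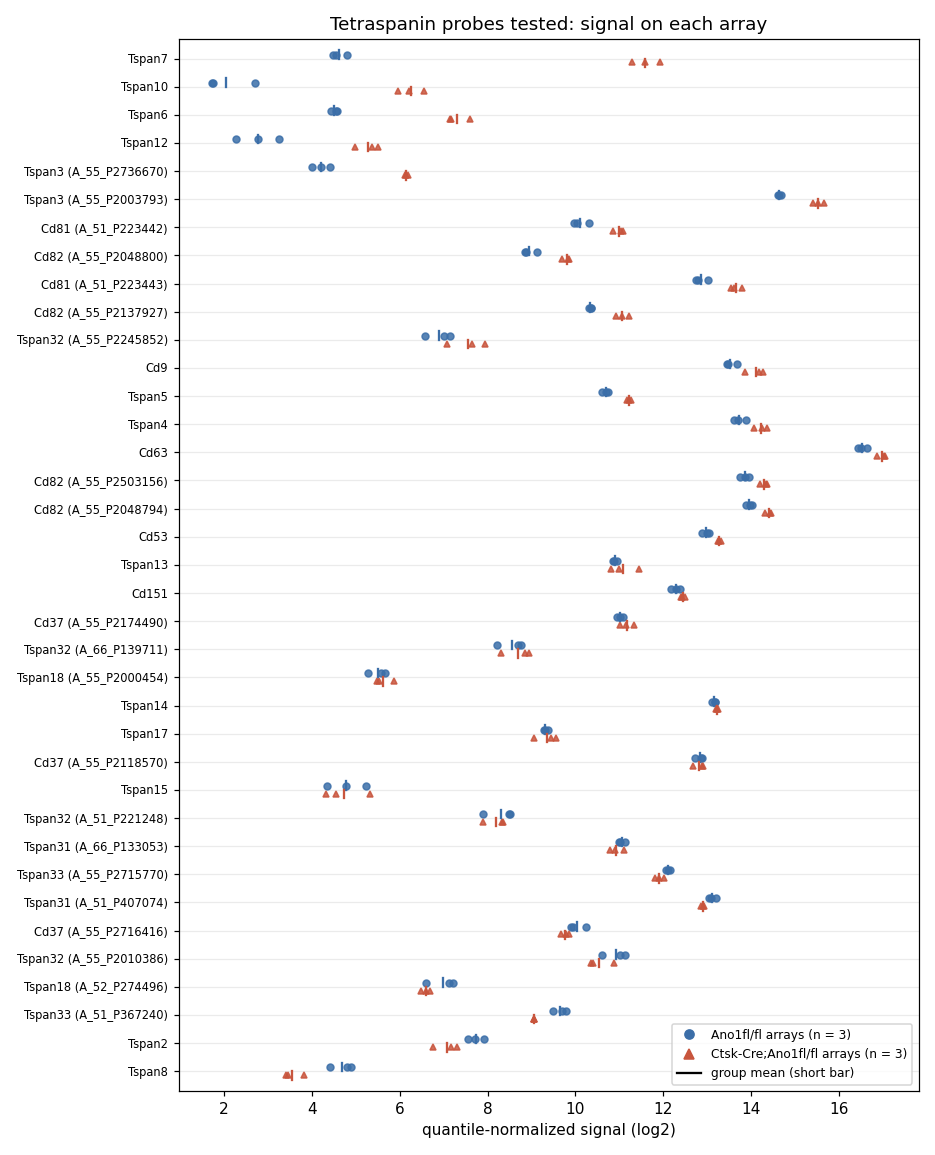
Log2 quantile-normalized signal of each of the 37 tetraspanin probes tested, with circles for the 3 Ano1fl/fl arrays, triangles for the 3 Ctsk-Cre;Ano1fl/fl arrays and short bars for group means; probes are ordered by their difference. Tspan7 moves from between 4.48 and 4.79 to between 11.29 and 11.92, while abundant members such as Cd63 shift by less than 1 unit.

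The widest gap in the family was that of Tspan7, a tetraspanin of neurons and osteoclasts. Its signal was 4.79, 4.48 and 4.55 in the 3 Ano1fl/fl cultures and 11.29, 11.92 and 11.58 in the 3 Ctsk-Cre;Ano1fl/fl cultures. All 3 cultures with Cre lay far above all 3 without, and each of the 6 arrays placed the probe well above background. The difference was 6.99 (SE 0.17, adjusted p = 4.95e-06, limma), a fold of 127 on the processed signal. With normexp background correction the difference was 5.18, and with the series matrix values it was 5.78, so the fold depends on how the dim Ano1fl/fl signal is treated. This probe is printed in replicate on the array, with 7 to 10 usable spots per array, and the standard deviation between its spots was 0.12 to 0.23 without Cre and 0.019 to 0.027 on the others.

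Tspan6 and Tspan12 also rose from low levels. Tspan6, which has been described in innate immune signaling and exosome cargo sorting, read 4.54, 4.57 and 4.43 without Cre and 7.60, 7.18 and 7.14 with Cre. The groups did not overlap, and the difference was 2.80 (SE 0.14, adjusted p = 3.39e-05, limma), a fold of 6.95. Tspan12, a co-receptor component that enhances Norrin signaling through the receptor Fzd4, read 2.27, 2.76 and 3.25 without Cre, where no array placed it well above background. It read 5.51, 5.38 and 4.97 with Cre, well above background on all 3 arrays. Against background on the processed signal the gene was at least 2.49-fold higher (adjusted p = 0.000548, limma).

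The sizes of these low probes depended on how background was handled. With normexp correction or with the series matrix values in place of the processed signal, Tspan6 differed by 1.38 and 1.79 and Tspan12 by 0.58 and 0.84. The latter values lie under the limit just given for Tspan12 (1.31 on the log2 scale), so that limit holds for the processed signal only. Both genes stayed higher with an adjusted p under 0.05 in both settings, although Tspan12 had entered the test through the Ctsk-Cre;Ano1fl/fl arrays alone.

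Tspan3, a widely expressed tetraspanin, was read by 3 probes that differed in brightness. The bright probe on its RefSeq transcript (A_55_P2003793) read 14.68, 14.61 and 14.64 without Cre and 15.53, 15.66 and 15.42 with Cre, a difference of 0.89 (SE 0.09, adjusted p = 0.000404, limma). A dim probe on another transcript of the locus (A_55_P2736670) read 4.01, 4.21 and 4.42 against 6.18, 6.15 and 6.12, a difference of 1.94 (SE 0.12, adjusted p = 6.65e-05, limma). The size at the dim probe fell to 0.72 with normexp background correction and 1.01 with the series matrix values. Both probes gave higher signal in every culture with Cre, and the sizes differed, the dim probe being well above background on 2 of 3 Ano1fl/fl arrays. No array placed the third probe well above background.

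The TspanC8 group, named for the cysteines of its large extracellular loop, binds the metalloproteinase Adam10 and controls its exit from the endoplasmic reticulum and its choice of substrates. Its 6 genes (Tspan5, Tspan10, Tspan14, Tspan15, Tspan17 and Tspan33) had 7 probes tested, of which 2 were higher, 1 was lower and 4 did not pass, with a median difference of 0.03, beside 21.8% higher and 30.6% lower over all probes tested. Of the 2 that were higher, Tspan10 passed the filter through the Ctsk-Cre;Ano1fl/fl arrays alone. Tspan5 and Tspan10 are the TspanC8 genes that have been tied to osteoclast formation.

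Tspan10 read 2.70, 1.74 and 1.73 on the Ano1fl/fl arrays, none of them well above background. It read 5.97, 6.56 and 6.22 on the Ctsk-Cre;Ano1fl/fl arrays, all well above it, and was at least 4.86-fold higher on the processed signal (adjusted p = 0.000118, limma). The difference was 1.14 with normexp and 1.65 with the series matrix values, both under that limit of 2.28 on the log2 scale. Tspan5 was higher by a smaller margin, with a mean of 10.69 in Ano1fl/fl cultures and a difference of 0.53 (SE 0.08, adjusted p = 0.00179, limma). Both genes stood higher in every culture with Cre.

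Tspan33, a TspanC8 member known from B cells and erythroid precursors, was lower at the probe on its RefSeq transcript, with a difference of -0.60 (SE 0.10, adjusted p = 0.00293, limma). Its other, brighter probe (A_55_P2715770) differed by -0.20, with an adjusted p of 0.0937. Tspan14 differed by 0.07 (95% interval -0.10 to 0.23) and Tspan17 by 0.03 (-0.31 to 0.37). Tspan15 differed by -0.05, and its interval of -0.83 to 0.73 leaves room for a change of either sign.

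The partner of this group, Adam10, was lower at both of its probes. The brighter one (A_55_P1967216) read 13.06, 13.05 and 13.19 without Cre and 12.56, 12.65 and 12.50 with Cre, a difference of -0.53 (SE 0.08, adjusted p = 0.00244, limma). The dimmer one (A_66_P124299) differed by -0.67 (SE 0.08, adjusted p = 0.00108, limma). The groups did not overlap at either probe, and the Adam10 differences had the sign of Tspan33 and the opposite sign to Tspan5 and Tspan10.

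**Figure D2:**
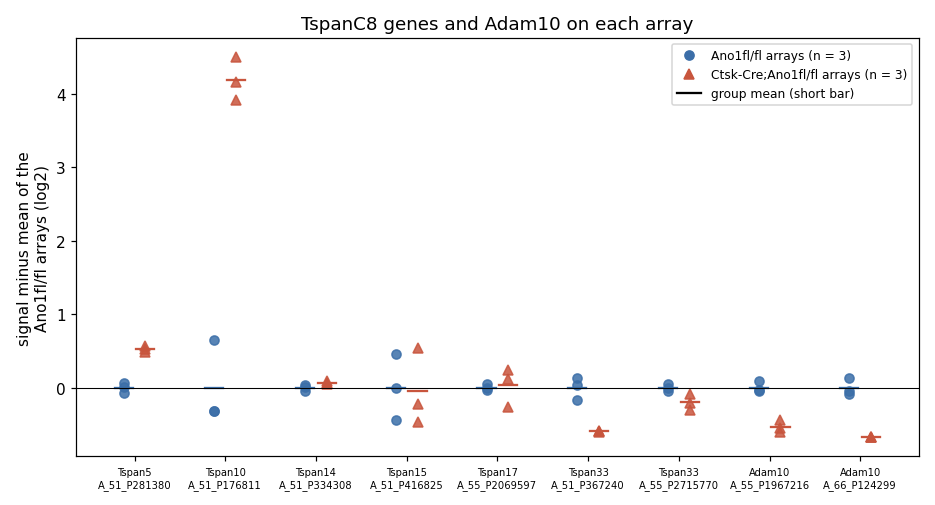
Signal of the 7 TspanC8 probes tested and the 2 Adam10 probes, as log2 signal minus the mean of the Ano1fl/fl arrays, with circles for the 3 Ano1fl/fl arrays, triangles for the 3 Ctsk-Cre;Ano1fl/fl arrays and short bars for group means. Tspan10 and Tspan5 lie above the line in all 3 Ctsk-Cre;Ano1fl/fl cultures and Tspan33 and Adam10 lie below it; the Ano1fl/fl values of Tspan10 were below background, so its height is not a measured fold.

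Among the tetraspanins found on most cells, Cd9, Cd63, Cd81 and Cd82 were higher and Cd151 did not pass the test. Cd81, which with Cd9 organizes immunoglobulin-family partners at the cell surface, had 2 probes that gave similar differences. The brighter probe (A_51_P223443) read 12.80, 13.02 and 12.74 without Cre and 13.60, 13.55 and 13.79 with Cre, a difference of 0.79 (SE 0.11, adjusted p = 0.00161, limma). The other (A_51_P223442) read 9.97, 10.32 and 10.04 against 11.04, 10.85 and 11.08, a difference of 0.88 (adjusted p = 0.00155, limma). Every culture with Cre lay above every culture without it at both probes.

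Cd9, the fusion-related partner of Cd81, read 13.68, 13.44 and 13.47 on the Ano1fl/fl arrays. It read 14.28, 14.18 and 13.85 on the Ctsk-Cre;Ano1fl/fl arrays, a difference of 0.57 (SE 0.13, adjusted p = 0.0126, limma) or 1.49-fold. The groups did not overlap, although the lowest culture with Cre came close to the highest without. A second probe that carries the name Cd9 lies on the opposite strand (chr6:125445268-125445327, plus strand in mm9), and none of the 6 arrays placed it well above background.

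Cd82 is a tetraspanin of the cell surface and endosomes, known as a suppressor of metastasis, and all 4 of its probes were higher. The probe at position 431 of its transcript (A_55_P2048800) read 8.89, 9.12 and 8.85 against 9.86, 9.83 and 9.70, a difference of 0.85 (adjusted p = 0.000866, limma). The probe at position 1101 (A_55_P2137927) read 10.36, 10.36 and 10.31 against 11.21, 11.06 and 10.93, a difference of 0.73 (adjusted p = 0.00115, limma). The overlapping pair nearer the 3′ end, shown above, was brighter and differed by less.

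Of that pair, A_55_P2048794 read 14.03, 13.97 and 13.88 against 14.32, 14.44 and 14.45, a difference of 0.44 (adjusted p = 0.00498, limma). A_55_P2503156 read 13.94, 13.87 and 13.74 against 14.21, 14.35 and 14.34, a difference of 0.45 (adjusted p = 0.00629, limma). The 4 probes agreed in direction and spanned 0.44 to 0.85 in size, so the size given for Cd82 depends on the probe.

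Cd63, a protein of late endosomes, lysosomes and exosomes, was read at 16.65, 16.43 and 16.50 without Cre and at 17.03, 17.05 and 16.88 with it. The groups did not overlap, and the difference was 0.46 (SE 0.09, adjusted p = 0.00718, limma). Its probe is printed in replicate, with 8 to 10 usable spots per array and a standard deviation between spots of 0.0145 to 0.0514. Cd151, which binds laminin-binding integrins, read 12.38, 12.29 and 12.18 against 12.44, 12.51 and 12.40, a difference of 0.17 (95% interval -0.04 to 0.37, adjusted p = 0.139, limma).

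Of the leukocyte tetraspanins, Cd53 was higher, and Cd37 and Tspan32 did not pass. Cd53, found on most white blood cells, read 12.88, 13.00 and 13.04 without Cre and 13.30, 13.25 and 13.27 with Cre, a difference of 0.30 (SE 0.08, adjusted p = 0.0168, limma). That call was lost when the arrays were scaled to their 75th percentile (0.21, adjusted p = 0.0754, limma) and with the replicate number as a block (adjusted p = 0.0571, limma). The rise of Cd53 therefore lay near the threshold.

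Cd37, most abundant on B cells and also present on myeloid cells, did not pass at any of its 3 probes. The brightest (A_55_P2118570) read 12.87, 12.88 and 12.73 against 12.87, 12.69 and 12.91, with a 95% interval of -0.23 to 0.22 around a difference near 0 (adjusted p = 0.974, limma). The second (A_55_P2174490) read 11.01, 11.07 and 10.95 against 11.34, 11.02 and 11.16, a difference of 0.16, and the third (A_55_P2716416) read 9.90, 9.94 and 10.24 against 9.86, 9.67 and 9.79, a difference of -0.25. The groups overlapped at the first 2 probes, and the 3 probes did not share a sign.

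Tspan32, a tetraspanin of blood-forming cells, had 4 probes, none of which passed, with differences of 0.65, 0.15, -0.10 and -0.37. The 2 probes near the start of its transcripts had the positive values and the 2 farther along had the negative ones. The probe with the value of 0.65 (A_55_P2245852) had an adjusted p of 0.0679 with limma and passed in 4 of the other settings tried. No single direction can be given for this gene.

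**Figure D3:**
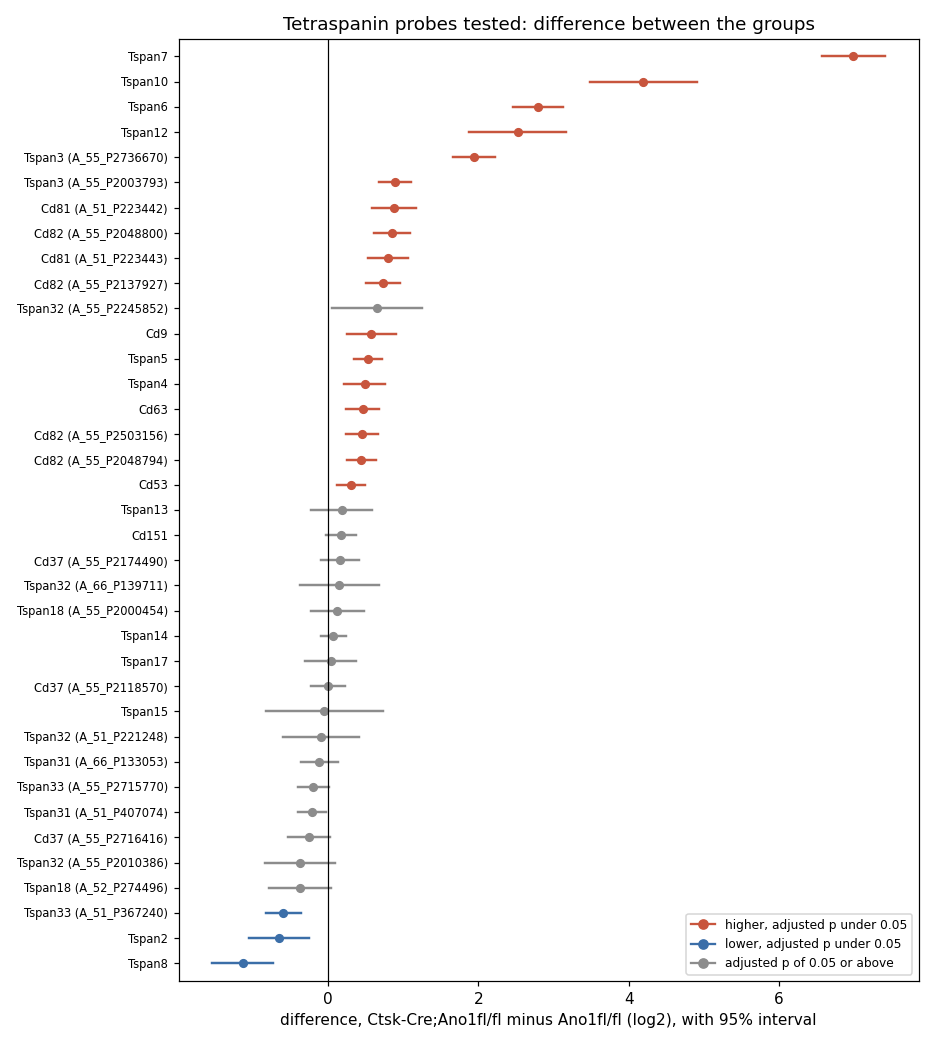
Difference between Ctsk-Cre;Ano1fl/fl and Ano1fl/fl arrays (log2) for each of the 37 tetraspanin probes tested, with 95% intervals from limma, 3 arrays per group; red is higher, blue is lower and grey did not pass an adjusted p under 0.05. Tspan7, Tspan10, Tspan6, Tspan12 and a dim Tspan3 probe stand more than 1 unit above 0, the other rises that passed lie between 0.30 and 0.89; Tspan10 and Tspan12 were below background without Cre and Tspan8 with it, so their points are fitted values and not measured sizes.

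Tspan8 and Tspan2 completed the genes that were lower. Tspan8, a tetraspanin of epithelia and some tumor exosomes, read 4.40, 4.89 and 4.79 without Cre and 3.45, 3.41 and 3.81 with Cre. None of the latter placed it well above background, and it was at least 1.61-fold lower on the processed signal (adjusted p = 0.00208, limma). The difference was -0.23 with normexp and -0.37 with the series matrix values, smaller than that limit of 0.69 on the log2 scale. Tspan2, known from myelinating glia, was lower by a difference of -0.66 (SE 0.16, adjusted p = 0.0159, limma). Its call was lost without Ano1fl/fl replicate 3 (-0.57, adjusted p = 0.0531, limma).

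Of the remaining members, Tspan4, known from migrasomes, was higher by 0.49 (SE 0.11, adjusted p = 0.0121, limma). Tspan13 differed by 0.18 (95% interval -0.22 to 0.58). Tspan31 differed by -0.21 and -0.12 at its 2 probes, the first with an adjusted p of 0.0562 that passed in 6 of the other settings tried. Tspan18, which is tied to the calcium channel Orai1, differed by -0.38 and 0.12 at 2 probes, and no array placed its other 3 probes well above background.

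Tspan1, Tspan9 and Tspan11 had no probe tested. No array placed Tspan1 well above background, while Tspan11 and each of the 2 Tspan9 probes were so on 1 Ctsk-Cre;Ano1fl/fl array. Of the 11 genes with several probes, 8 had more than 1 tested, and in 5 of these all differences had 1 sign. Outside the naming rule, Rom1 (-0.52, adjusted p = 0.0275, limma), known from photoreceptors, and Upk1a (-0.71, adjusted p = 0.00638, limma), known from urothelium, were lower, and Prph2 and Upk1b were not tested.

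Several members are neighbors in the genome, and neighbors did not always receive the same call. Cd151 and Tspan4, whose probes lie 21.9 kb apart on chromosome 7, gave 0.17 and 0.49, and only the latter passed. Cd81 was higher at both probes, while Tspan32, 47.3 kb away, passed at none. Cd82 was higher at all 4 probes, while Tspan18, 107.8 kb away on chromosome 2, passed at none. Whether these pairs differ was not tested.

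The proteins that tetraspanins bind or act with were followed through a list of 44 genes. Of its 86 probes tested (43 genes), 36 probes of 24 genes were higher, 21 probes of 12 genes were lower and 29 did not pass, with a median difference of 0.20. The shares over all probes tested were 21.8% higher and 30.6% lower, with a median of -0.09. Itgav and Sdcbp, named here after their values were seen, had probes called in both directions. Among the larger rises were Hbegf, a growth factor whose membrane form binds Cd9, with 4.65 (adjusted p = 1.9e-05, limma), and Timp1, a metalloproteinase inhibitor that binds Cd63, with 4.45 (adjusted p = 1.7e-05, limma). Epcam, an epithelial adhesion protein of tetraspanin platforms, had no Ano1fl/fl array well above background and was at least 2.79-fold higher.

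The largest fall was that of Ifitm1, an interferon-induced membrane protein that associates with Cd81, with -2.93 (adjusted p = 0.000138, limma). Itga6, an integrin chain that binds Cd151, was lower at 4 of 5 probes, with differences of -1.56 to -0.99, and the fifth differed by -0.0024. Itga4, the integrin chain tied to Cd81, was lower at 3 of the 5 probes tested, with differences of -1.04 to -0.60, while its brightest probe differed by -0.25 and did not pass (adjusted p = 0.0675, limma). Lrp5, the co-receptor that acts with Fzd4 and Tspan12, was lower at both probes, by a difference of -0.46 at the brighter one. The dimmer one (-1.19) was well above background on 2 of 3 Ctsk-Cre;Ano1fl/fl arrays. Fzd4, named here after its values were seen, was higher at both of its probes, by 2.003 at the brighter and 2.65 at the dimmer one, and Tspan12 was higher too. Ndp, the gene of Norrin and likewise named afterwards, was placed well above background by no array.

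Promoters are shown for the 4 genes with a rise of more than 2-fold on the processed signal that were read by a single probe. Of these, Tspan10 and Tspan12 passed the filter through the Ctsk-Cre;Ano1fl/fl arrays alone. Whether the 4 genes rise together was not tested. RefSeq (GRCm38.p6) gave a promoter for 26 of the 27 members (all but Tspan18), 36 entries in all, and the 250 bases before the start were searched on both strands for 4 short motifs. These were GGAAA, the core of NFAT sites, and GAGGAAG, a PU.1 site. The others were TGACTCA, an AP-1 site, and CANGTG, which covers only some of the forms of the E-box, CANNTG. Capitals mark matches, and each sequence is written 5′ to 3′ in the direction of the gene.
Tspan7 promoter: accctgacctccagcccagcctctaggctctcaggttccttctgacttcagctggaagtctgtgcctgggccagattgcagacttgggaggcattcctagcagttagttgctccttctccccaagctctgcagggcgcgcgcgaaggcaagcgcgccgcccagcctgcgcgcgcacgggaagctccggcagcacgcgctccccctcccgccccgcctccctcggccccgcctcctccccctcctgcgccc
Tspan10 promoter: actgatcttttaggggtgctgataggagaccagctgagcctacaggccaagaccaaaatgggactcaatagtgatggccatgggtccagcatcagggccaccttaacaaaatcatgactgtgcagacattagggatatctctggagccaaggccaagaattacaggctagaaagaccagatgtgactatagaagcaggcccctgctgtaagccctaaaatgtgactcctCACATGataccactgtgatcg
Tspan6 promoter: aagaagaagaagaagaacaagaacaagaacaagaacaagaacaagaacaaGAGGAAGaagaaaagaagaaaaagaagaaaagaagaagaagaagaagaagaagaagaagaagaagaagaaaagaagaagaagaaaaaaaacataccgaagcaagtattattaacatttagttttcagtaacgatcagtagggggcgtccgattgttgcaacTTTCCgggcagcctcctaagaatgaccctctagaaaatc
Tspan12 promoter: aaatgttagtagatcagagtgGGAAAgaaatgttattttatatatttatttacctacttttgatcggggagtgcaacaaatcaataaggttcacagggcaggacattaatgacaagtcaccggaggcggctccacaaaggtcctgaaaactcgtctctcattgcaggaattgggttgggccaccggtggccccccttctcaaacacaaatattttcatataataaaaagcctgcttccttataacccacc

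In GRCm38.p6 they lie at chrX:10484866-10485115 on the plus strand (Tspan7), chr11:120442381-120442630 on the plus strand (Tspan10), chrX:133898430-133898679 on the minus strand (Tspan6) and chr6:21852534-21852783 on the minus strand (Tspan12). The Tspan7 window held none of the patterns searched, Tspan10 held 1 CANGTG match, Tspan6 held 1 GGAAA and 1 GAGGAAG match and Tspan12 held 1 GGAAA match. An E-box form that was not searched, CAGCTG, is in the Tspan7 and Tspan10 windows. None of the patterns searched was in all 4 windows, and their GC content ran from 36.0% (Tspan6) to 69.2% (Tspan7). Over all 36 member entries, GGAAA was present in 18, GAGGAAG in 9, TGACTCA in 1 and CANGTG in 13. The shares over all 32851 promoters were 55.6%, 10.6%, 4.46% and 39.5%. These matches are descriptions of letters, not of sites in use.

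The cultures also differed in markers of several cell types, given here as summed linear signal over each list. The 10 osteoclast markers (Ctsk, Acp5, Mmp9 and Oscar among them) summed to 146400 to 158900 in Ano1fl/fl cultures and 498900 to 562100 in Ctsk-Cre;Ano1fl/fl cultures, and all 10 were higher. The 10 stromal markers, such as Col1a1, went from 3592 to 4128 up to 66990 to 109900 (9 higher), and the 6 B cell markers, such as Cd79a, from 7508 to 9078 up to 24850 to 48870 (6 higher). None of the markers in these 3 lists was below background on all arrays.

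The 6 platelet markers, such as Pf4, went from 123900 to 141700 down to 53600 to 62340 (6 lower). The 8 markers of neutrophils and their precursors went from 307100 to 322900 down to 202700 to 254700 (5 lower, 1 higher), a fall in the sum carried largely by Mpo. Mpo, Elane and Prtn3 were lower, with differences of -3.41, -3.25 and -3.46, while Camp did not pass (-0.12). The 8 macrophage markers summed to 353400 to 374700 and 373900 to 421900 (2 higher, 3 lower). The 5 endothelial markers went from 3704 to 4796 down to 1749 to 2006 (Pecam1 higher, Kdr lower), a fall in the sum carried mostly by Kdr, with Tek below background on all arrays. The part of these shifts in the tetraspanin differences was not tested.

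The 6 arrays were on 1 slide read in 1 scan. Each held 59305 spots for transcripts, 33480 to 34951 of them well above background. Across probes, arrays correlated at 0.994 to 0.997 within groups and 0.944 to 0.950 between them; probes are not independent replicates.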

How the data were processed

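RNA of osteoclast cultures from 3 Ano1fl/fl and 3 Ctsk-Cre;Ano1fl/fl mice was hybridized to Agilent one-colour mouse arrays. Per the file headers and the submitters' processing notes, the authors read spots with Feature Extraction 10.7.1.1, and the deposited values are intensities on a linear scale, not normalized between arrays; the processed signal is already corrected for background and spatial trend. The series matrix equalled the spot medians (62973 values per array, largest difference 0).

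From these, log2 processed signals were quantile normalized, as the methods name, and spots of a probe were averaged, leaving out control spots, outlier spots (143 to 252 per array) and 14 probes with a missing value. A probe was tested if at least 0.5 of its spots were well above background on all 3 arrays of a group. Groups were compared with lmFit and eBayes in limma 3.58.1 (R 4.3.3), without covariates, and p was adjusted over 31848 probes by the Benjamini-Hochberg method. A fold given as a lower limit sets the brighter group against a floor for the dimmer one, per array the dimmest signal marked well above background. The fit was tested on simulated data with 200 changed probes: 10%, 50% and 84% of rises of 0.5, 1 and 2 log2 units were recovered, and 62% of falls of 1. Only 200 of 31848 probes were changed there, while 21.8% were called higher and 30.6% lower in the real data. The adjusted threshold was therefore stricter in the simulation, and those rates do not describe the real comparison. The number of arrays limits the precision. Tables were read with Python 3.11.15 and pandas 2.3.3.

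The members and lists were chosen with earlier results of these data known. Values on every array are given for member genes with a probe past an adjusted p of 0.05 and 2-fold and for Cd9, Cd37, Cd53, Cd63, Cd81, Cd82, Cd151 and Tspan7. Of the partners, the 4 largest rises, the 4 largest falls and Adam10 were to be named; the value of 1 gene is not reported here. Of each marker list, up to the first 4 genes could be named. All 39 RefSeq accessions of member probes matched the reference with the same symbol. Alternatives changed the scaling, background correction, filter, handling of several probes, test, block and arrays used.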

Additional observations from a re-analysis of the deposited data

How the results depend on the processing

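Of 575 single-probe results under the alternatives, 556 kept their side of the threshold, 15 passed only under the alternative, 4 lost the call and 0 reversed a call. Of the 556, 18 (10 probes, none of them called) changed sign. The 17 higher tetraspanin probes became 5 when more than 2-fold was asked as well, and the 3 lower became 5 with 75th percentile scaling, with normexp background correction and with limma's trend and robust options, and 1 with the 2-fold rule. Leaving out 1 array at a time gave 17 to 18 higher, 2 to 4 lower and a median of 0.1882 to 0.3167, the last without Ctsk-Cre;Ano1fl/fl replicate 2. In the TspanC8 group, 2 higher became 1 where all 6 arrays had to be above background and 1 with the 2-fold rule. The 1 lower became 2 with 75th percentile scaling, normexp and limma's trend and robust options, and 0 with the brightest probe of each gene and with the 2-fold rule. In the partner list, the 36 higher probes became 23 with the brightest probe, 22 with the mean of a gene's probes and 22 with the 2-fold rule, and the 21 lower became 6, 10 and 6, and 13 with the methods' t-test; the first 2 settings count genes, 43 in place of 86 probes. Otherwise the cause was not tested. Over all probes, the methods' t-test after Benjamini-Hochberg adjustment called 6262 higher and 8287 lower. Tspan2 lost its call with that test (adjusted p = 0.0548).

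The arrays gave no sign of pairing by replicate number: the deviations of same-numbered arrays correlated at -0.022, -0.085 and -0.094, and none of the 3 arrays correlated best with its own number. With deviations from means of 3 arrays, this cannot show that the samples were unpaired. With the replicate number as a block, 16 tetraspanin probes were higher and 3 lower, 2 TspanC8 probes were higher and 1 lower, and 33 partner probes were higher and 16 lower. The median stayed at 0.1789, which was fixed beforehand, since a block leaves each difference unchanged in this balanced design.

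Probes near background, such as those of Tspan8, Tspan10 and Tspan12, have limits in place of folds, which hold for the processed signal only. With 3 arrays per group, failing the threshold does not show that a gene kept its level.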
